A study of Mus musculus with 2 samples.

Results

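The enzymes that break glucose down to pyruvate and lactate, draw it off into the pentose phosphate pathway and turn pyruvate into citrate were compared between mammary epithelial cells of Cuzd1-null mice and of heterozygous littermates. The set lists 36 genes by their place in these pathways, and a gene was included when a probe set of the array carried its symbol and no other. That held for 33 of the 36 genes, out of 18194 genes named on the array. Gpi1, Eno1 and G6pdx had no probe set listed under their symbol and were not analysed here. The 33 genes were read by 79 probe sets, of which 72 lay above background on at least 1 array, and every gene lay above background on both arrays at its brightest probe set. The rule that admits a listed gene uses no measured value, but the list was chosen with earlier results of these data known.

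Both groups were pregnant females on day 18 of pregnancy on a mostly C57BL/6 background, reached by repeated backcrossing. The null mice carry no intact Cuzd1 allele after targeting in embryonic stem cells. The comparison group carries a disrupted copy as well, since it is heterozygous, and no wild-type group was analysed here. Inguinal glands were digested with hyaluronidase and collagenase, with no sort of cells recorded, and RNA of 5 mice per genotype was pooled on 1 array. With no replicate array, no test was possible, and each difference below is one between these 2 pools.

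Values are MAS5 signals, a linear brightness in intensity units that the authors scaled to the same trimmed mean on each array. Background was taken as each array's median, 34.2 units in the heterozygous pool and 32.5 units in the null pool. A ratio below is the log2 of null over heterozygous signal, so 1 unit is 2-fold and values under 0 are lower in the null pool. Cuzd1 itself read 32.4 and 33.98 units, so its level does not check the labels. All 9 luminal epithelial markers were above background on both arrays, among them Krt18, a keratin of simple epithelium, at 8581 and 10002.7 units. The probe sets for hybridization controls had a median ratio of -0.23, so that scaling to them in place of the deposited scaling adds 0.23 to every ratio. That turns the direction of small ratios. Differences between the ratios of 2 genes do not depend on it.

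Glucose enters the pathway when hexokinase phosphorylates it. Phosphofructokinase then commits it to glycolysis, while the pentose phosphate branch makes NADPH and ribose phosphate. In the mitochondrion, pyruvate dehydrogenase makes acetyl-CoA and pyruvate carboxylase makes oxaloacetate. Citrate synthase joins the products, and the citrate carrier exports citrate to the cytosol, where it is split to feed fatty acid synthesis. In the mammary gland the same glucose also supplies lactose and the glycerol of milk fat, and late pregnancy is when the epithelium builds up this machinery.

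Ratios of the 33 genes were small and lay on both sides of 0. The median was -0.04 (quartiles -0.22 and 0.07), with 18 genes lower and 15 higher in the null pool. Among all 11894 measured genes, 46.0% were lower and the median was 0.03, and of the genes with a mean signal over 200 units, where all 33 members lie, 46.9% were lower. No member was 2-fold apart, against 2.15% of all measured genes and 1.18% of the brighter genes. Only Ldhb was at least 1.5-fold apart, while 10.8% of all measured genes and 5.34% of these brighter genes were. By direction, 5.83% of all measured genes were 1.5-fold higher and 4.93% 1.5-fold lower, against 2.63% and 2.71% of the brighter genes. Among genes of similar signal, the robust SD of the ratios ran from 0.19 to 0.30, and their median from -0.05 to 0.08. Compared with the middle 50% of those genes, 11 members lay below it, 15 inside it and 7 above it.

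The direction of many members rested on the scaling. Under the deposited values and the 9 alternative settings, 8 members were lower each time. These were Hk2, Pfkp, Pgk1, Pdhb, Pdk4, Pcx, Mdh1 and Slc25a1, and they are also the 8 that remain below 0 after scaling to the hybridization controls. Another 12 were higher each time: Hk1, Pfkm, Pfkfb3, Tpi1, Ldhb, Pgls, Pgd, Rpia, Taldo1, Pdk1, Idh1 and Idh2. The sign of the other 13 differed between settings. Several settings could not turn a positive ratio: other floors and the filter for both arrays left every member's ratio unchanged. Scaling to control probe sets added a positive amount to each. Tpi1 counted as higher with a ratio of 0.0008 under the deposited scaling. Of 21 members with several probe sets above background on both arrays, 15 had all of them on 1 side of 0. That share was 71.4%, beside 53.5% of the 4724 genes with several such probe sets. Those genes include dim ones, whose ratios scatter more, with a robust SD of 0.57 at mean signals of 39.8 to 48.5 units. The share was not taken over brighter genes alone, so the 2 shares are not like for like.

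**Figure D1:**
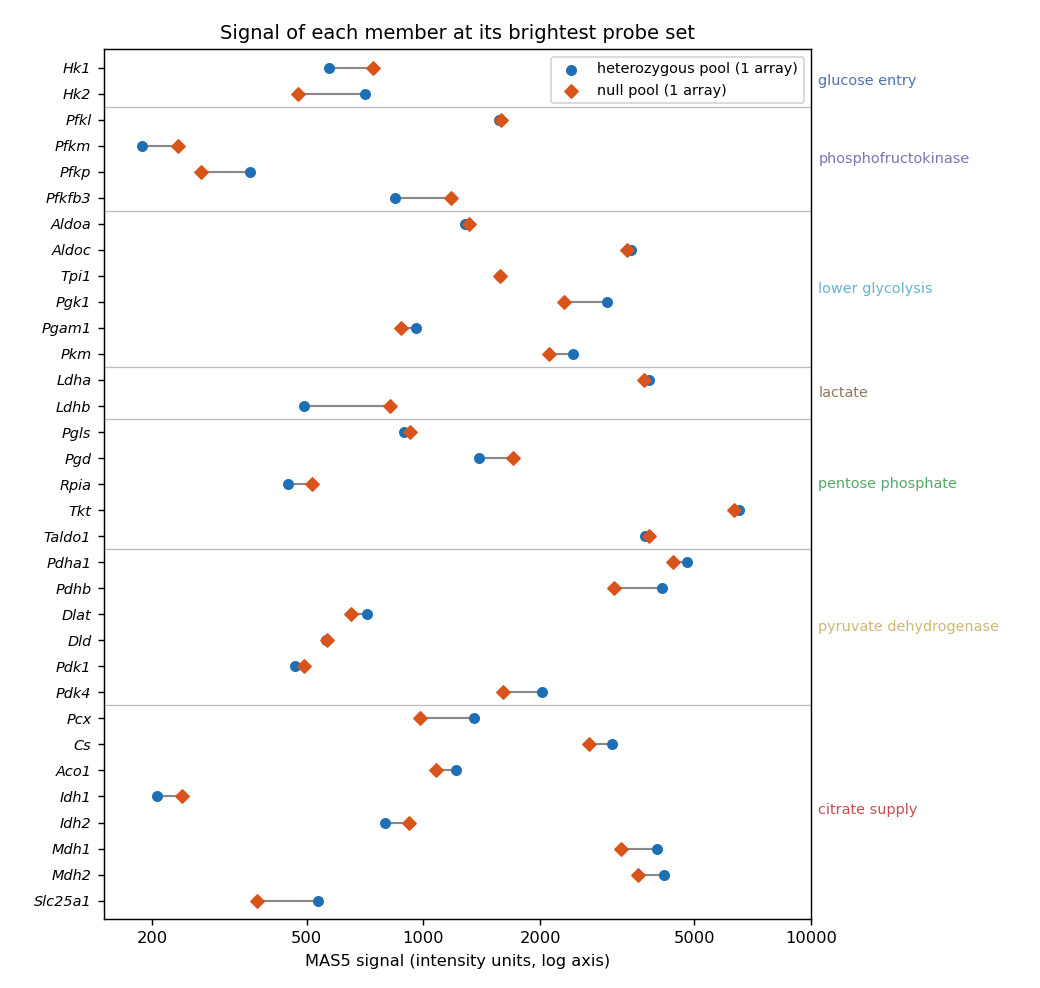
MAS5 signal of each of the 33 genes at its brightest probe set, on a log axis in intensity units, with a circle for the heterozygous pool and a diamond for the null pool (1 array each, so there are no error bars). The symbols lie close together for most genes; the widest gap is that of Ldhb, at 492 and 818 units.

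Under the deposited scaling, the members farthest from equal signal were Ldhb, Pfkfb3, Hk2, Slc25a1 and Pcx. After scaling to the hybridization controls they were Ldhb, Pfkfb3, Hk1, Pfkm and Pgd, while Hk2, Slc25a1 and Pcx were still below 0. The first 5 are shown with their promoters, to set genes of opposite direction side by side. Each sequence is the 250 bases before the transcription start in RefSeq (GRCm38.p6), 5′ to 3′ on the gene's strand, with the letters ACGTG on either strand in capitals, the core of the element bound by hypoxia-inducible factors. CACGTG, the E-box bound by MYC, holds ACGTG on both strands, so that it counts as 2 matches. For Pcx and Pfkfb3, which have another start listed, the window farther upstream is shown. Hk2 lies at chr6:82774455-82774704 (minus strand), Slc25a1 at chr16:17928220-17928469 (minus strand) and Pcx at chr19:4510222-4510471 (plus strand), all lower in the null pool. Pfkfb3 lies at chr2:11553930-11554179 (minus strand) and Ldhb at chr6:142507958-142508207 (minus strand), both higher.
Hk2: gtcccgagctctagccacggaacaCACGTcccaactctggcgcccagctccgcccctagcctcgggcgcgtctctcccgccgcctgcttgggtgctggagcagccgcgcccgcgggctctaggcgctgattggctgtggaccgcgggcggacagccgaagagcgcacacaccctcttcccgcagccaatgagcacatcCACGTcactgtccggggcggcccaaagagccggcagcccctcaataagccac
Slc25a1: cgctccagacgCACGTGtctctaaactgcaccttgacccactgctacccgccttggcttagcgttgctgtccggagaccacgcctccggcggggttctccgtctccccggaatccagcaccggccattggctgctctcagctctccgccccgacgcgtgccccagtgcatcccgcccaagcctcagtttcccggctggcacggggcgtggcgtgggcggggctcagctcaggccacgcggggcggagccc
Pcx: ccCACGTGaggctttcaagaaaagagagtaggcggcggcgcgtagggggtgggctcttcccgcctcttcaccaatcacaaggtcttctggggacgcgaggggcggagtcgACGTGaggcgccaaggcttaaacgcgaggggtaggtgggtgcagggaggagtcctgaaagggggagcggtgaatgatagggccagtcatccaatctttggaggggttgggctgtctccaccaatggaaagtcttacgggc
Pfkfb3: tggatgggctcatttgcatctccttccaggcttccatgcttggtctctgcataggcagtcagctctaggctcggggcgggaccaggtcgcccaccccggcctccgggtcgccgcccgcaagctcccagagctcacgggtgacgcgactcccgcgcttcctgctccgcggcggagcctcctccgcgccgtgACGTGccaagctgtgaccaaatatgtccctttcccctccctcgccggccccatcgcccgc
Ldhb: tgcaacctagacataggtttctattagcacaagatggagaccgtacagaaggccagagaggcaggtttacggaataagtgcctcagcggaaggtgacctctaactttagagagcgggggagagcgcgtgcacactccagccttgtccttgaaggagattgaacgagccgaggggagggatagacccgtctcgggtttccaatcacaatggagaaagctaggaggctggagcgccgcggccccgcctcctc

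Among these 5, Hk2 held ACGTG 2 times, Slc25a1 2 times and Pcx 3 times counting both strands, and Pfkfb3, with a ratio of the opposite sign, held it 1 time. Ldhb held none in this window. At the other listed starts, the window of Pfkfb3 held 2 matches and that of Pcx held 0. Over the 36 genes listed, 12 had ACGTG in a window, all of them measured. Of these 12, 9 were lower in the null pool, against 9 of the other 21, and after scaling to the hybridization controls 6 and 2 were. The 8 members lower after that scaling are those lower under every setting, so that these 6 are no further count. Among the 12 higher under every setting, 2 held ACGTG. These counts have no test. The letters were present in 28.8% of their 52 windows against 16.6% of all 32851 windows of that length. CACGTG was in 9.62% of the members' windows and 6.02% of all windows. Of the 5 measured members with CACGTG, 3 were lower in the null pool, against 15 of the other 28. It was held by 2 of the 8 members lower under every setting and by 2 of the 12 higher. TGACNNNGC, the antioxidant response element, was in 5.77% and 10.2%, searched on both strands like the others. Of the 2 measured members with TGACNNNGC, 0 were lower, against 18 of the other 31. These counts have no test either. A match is a run of letters and not a measured binding site.

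The hexokinases went opposite ways. Hk1, the constitutive form, read 571 units in the heterozygous pool and 739 in the null pool at its brightest probe set, and 291 and 389 units at its other. The null pool was the higher at each, with ratios of 0.37 and 0.42. Hk2, the form induced by insulin and low oxygen, read 705 and 476 units at its only probe set, a ratio of -0.57 or 1.48-fold lower. The robust SD among genes of similar signal was 0.25 for both. The ratio of Hk2 was therefore 0.94 below that of Hk1, and 0.98 below it at the other Hk1 probe set. For scale, the robust SD of the difference between a pair of probe sets of the same gene was 0.30, over 4724 genes.

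Phosphofructokinase subunits and their activator spread as widely. Pfkl, the liver-type subunit, read 1562 and 1584 units, a ratio of 0.02, with -0.06 and -0.29 at its dimmer probe sets. Pfkm, the muscle-type subunit, read 188 and 233 units, a ratio of 0.31. Pfkp, the platelet-type subunit, read 357 and 268 units, a ratio of -0.42, and its other probe sets had -0.56 and -0.28. All 3 probe sets of Pfkp were lower in the null pool, so that its ratio lay 0.73 below that of Pfkm, and 0.59 to 0.87 below it over all pairs of probe sets. Against Pfkl it was lower for 8 of 9 such pairs. Pfkfb3, which makes the sugar bisphosphate that activates phosphofructokinase, read 843 and 1179 units, a ratio of 0.48. Its other probe set read 124 and 200.03 units, a ratio of 0.70. Both were higher in the null pool, and at the brighter Pfkfb3 was 1.40-fold higher and above the middle 50% of genes of similar signal.

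The lower steps of glycolysis were close to equal at most enzymes. Tpi1, triose phosphate isomerase, read 1579 and 1579.6 units at its brightest probe set, a ratio that rounds to 0, with 0.17 and 0.07 at the others. Aldoa, the main aldolase, read 1281 and 1310.4 units (0.03), and its 5 probe sets ran from -0.15 to 0.03. Aldoc, another aldolase, read 3424 and 3358 units (-0.03). Its other probe set was near background, at 41.4 and 34.5 units. Pgk1, the first of the steps that yield ATP, stood out from these, at 2978 and 2309.8 units, 1.29-fold lower. Its other probe sets were lower too, at 2404 and 2036 units and at 303 and 259 units, with ratios of -0.24 and -0.22. Pgam1, phosphoglycerate mutase, read 958 and 877 units (-0.13). Pkm, pyruvate kinase, read 2437 and 2113 units (-0.21), and its probe set does not tell its splice forms apart. After scaling to the hybridization controls Pgk1 had -0.14, Pkm 0.02 and Pgam1 0.10. The suffix of all 5 Aldoa probe sets marks them as able to bind other transcripts too.

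The lactate dehydrogenase subunits differed as well. Ldha, the subunit that favours lactate formation, read 3807 and 3710.4 units, a ratio of -0.04. Ldhb, the subunit common in oxidative tissue, read 492 and 818 units at its brightest probe set, 490.02 and 686 at the next, 456 and 633 at the third and 310 and 518 at the last. The null pool was higher at all 4, with ratios of 0.47 to 0.74. At the brightest, Ldhb was 1.66-fold higher, and its ratio lay 0.77 above that of Ldha. The smallest difference over the 4 pairs of probe sets was 0.51. The suffixes of the 4 Ldhb probe sets mark them as reading more than 1 transcript, of the same gene or of others.

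The pentose phosphate enzymes were level or somewhat higher, with a median ratio of 0.05 over 5 genes and 0.28 after scaling to the hybridization controls. Pgd, which makes NADPH in the oxidative branch, read 1389 and 1704 units, a ratio of 0.30. Its other probe sets had 0.39, 0.12 and 0.01. Rpia, ribose phosphate isomerase, read 446 and 516 units (0.21). Pgls, the lactonase, read 893 and 925 units (0.05). The sugar-exchanging enzymes of the non-oxidative branch were nearly equal. Tkt, transketolase, read 6527 and 6322 units (-0.05), and Taldo1, transaldolase, read 3719 and 3806 units (0.03).

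**Figure D2:**
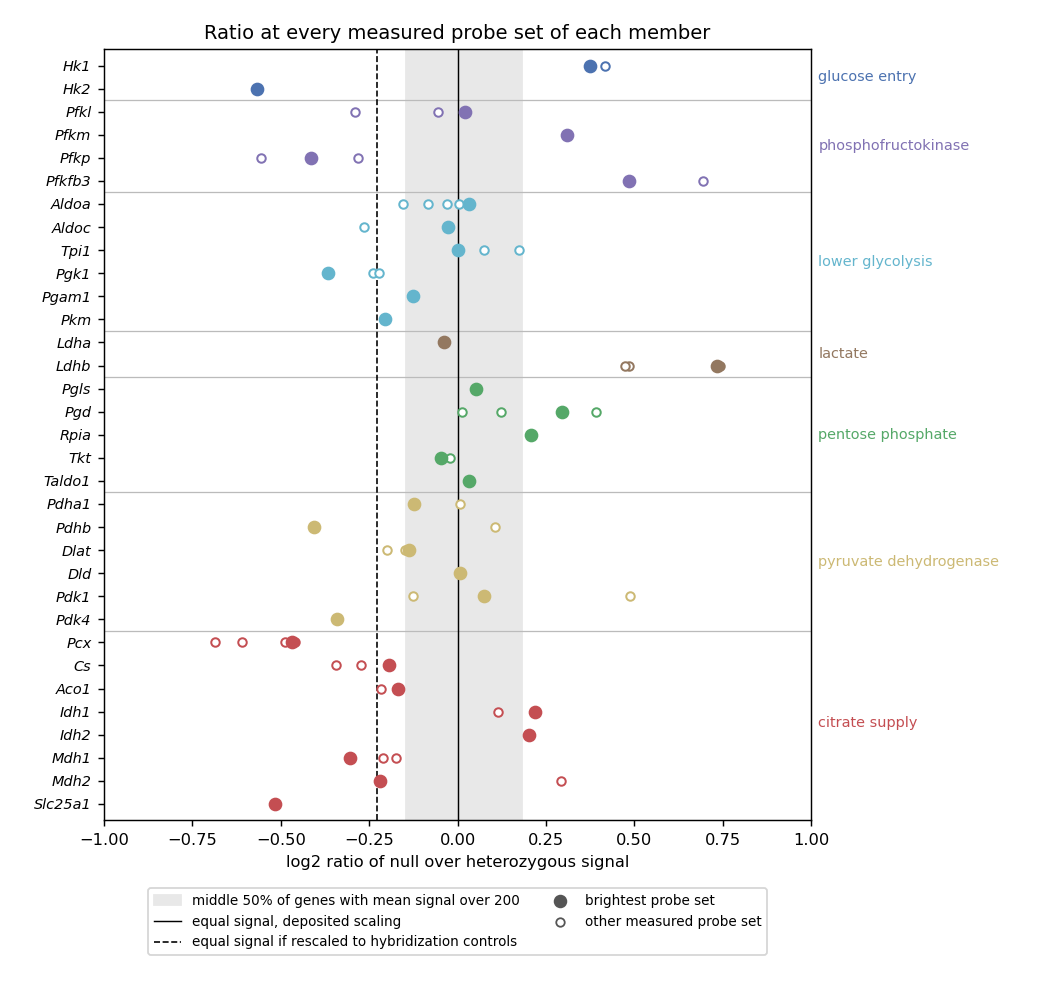
Log2 ratio of null over heterozygous signal at each of the 72 measured probe sets of the 33 genes, the brightest of each gene filled and the others open. The grey band is the middle 50% of genes with a mean signal over 200 units, and the dashed line at -0.23 is where equal signal would lie after scaling to the hybridization controls. All 4 probe sets of Ldhb lie above the band and all 5 of Pcx below it.

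In the pyruvate dehydrogenase complex, which makes acetyl-CoA in mitochondria, Pdhb stood lowest. The enzyme's beta subunit gene Pdhb read 4116 and 3109 units, a ratio of -0.40, but its dim second probe set read 113 and 121 units, a ratio of 0.11. Pdha1, the alpha subunit, read 4792 and 4399.8 units (-0.12), with 0.01 at the other probe set. Dlat, the acetyltransferase core, read 715 and 650.2 units (-0.14), and its 3 probe sets ran from -0.20 to -0.14. Dld, the subunit shared with other dehydrogenases, read 560.1 and 563 units (0.01). The kinases that switch the complex off differed as well. Pdk4, the kinase raised by fasting, read 2026 and 1600.2 units, a ratio of -0.34. Pdk1, a kinase raised by low oxygen, read 468 and 492 units (0.07), while its other probe sets read 319 and 447 units (0.49) and 158 and 145 units (-0.13). The ratio of Pdk4 was 0.41 below that of Pdk1 at the brightest probe sets, and below it at all 3 Pdk1 probe sets.

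The citrate supply genes held the lowest median of the steps with more than 2 genes, -0.21 over 8 genes, with 6 of them lower. They join genes that make and export citrate with Mdh1, Aco1, Idh1 and Idh2. After scaling to the hybridization controls the median was 0.02, with 3 lower, and after quantile normalization it was -0.16. Slc25a1, the carrier that exports citrate from mitochondria, read 534 and 373 units at its only probe set, 1.43-fold lower. Pcx, pyruvate carboxylase, which replaces oxaloacetate as citrate leaves, read 1352 and 977 units, a ratio of -0.47. The array also carries a control series of 4 probe sets along the Pcx transcript. From the 5′ end to the 3′ end these read 249 and 177, 397 and 247, 376 and 274, and 1206 and 791 units. The null pool was the lower at each, with ratios of -0.49, -0.69, -0.46 and -0.61, so that all 5 Pcx probe sets agreed in direction. The 3′ to 5′ signal ratio over this series was 4.85 in the heterozygous and 4.46 in the null pool. Over the actin control series it was 1.27 and 1.24, and the Gapdh series read lower at its 3′ end than at its 5′ end in both pools.

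The other genes of the group did not all share that direction. Cs, citrate synthase, read 3066 and 2679.97 units (-0.19), with -0.27 and -0.34 at its other probe sets. Mdh1, the cytosolic malate dehydrogenase, read 3997 and 3237 units (-0.30), with -0.17 and -0.21 at its other measured probe sets. Mdh2, its mitochondrial counterpart, read 4161 and 3573 units (-0.22) but 2018 and 2471 units (0.29) at its other probe set. Aco1, the cytosolic aconitase, read 1213 and 1079 units (-0.17). The isocitrate dehydrogenases that make NADPH were higher: Idh1, the cytosolic form, read 205 and 239 units (0.22), and Idh2, the mitochondrial form, 798 and 918 units (0.20). The ratio of Pcx was 0.67 below that of Idh2, and 0.66 to 0.89 below it over the 5 probe sets of Pcx. That of Slc25a1 was 0.72 below Idh2.

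**Figure D3:**
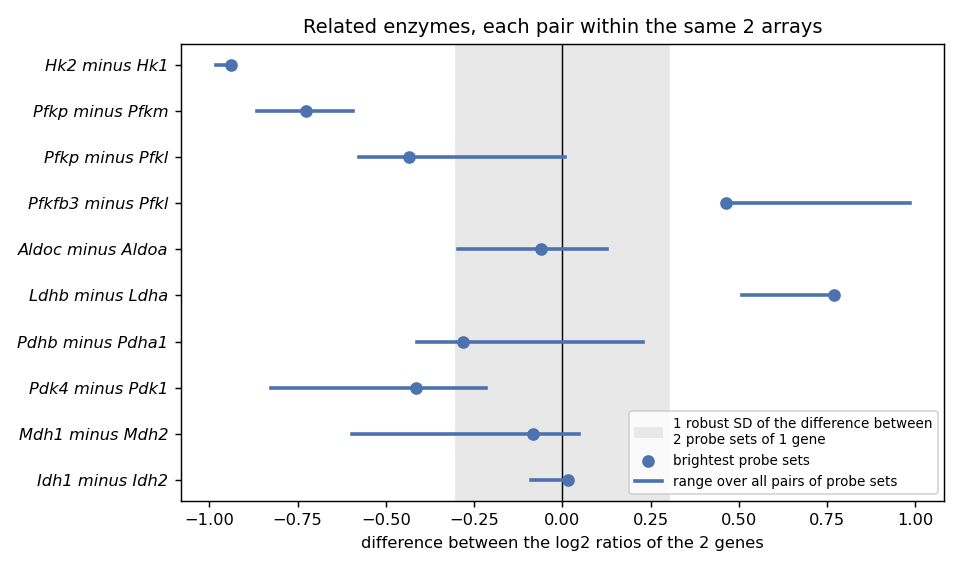
Difference between the log2 ratios of related enzymes, which does not depend on how either array was scaled; the point is the difference at the brightest probe sets and the line its range over all pairs of probe sets above background. The grey band is 1 robust SD (0.30) of the difference between a pair of probe sets of 1 gene. Hk2 minus Hk1 (-0.94), Pfkp minus Pfkm (-0.73) and Ldhb minus Ldha (0.77) lie outside it over their whole range.

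Citrate cycle genes outside the set had a higher median ratio than the citrate supply genes. Of 13 measured genes of the cycle outside the set, 12 were higher in the null pool, with a median of 0.15 (0.38 after scaling to the hybridization controls). Sdhd, a subunit of succinate dehydrogenase, read 977 and 1297 units (0.41), and Idh3b, a subunit of the NAD-dependent isocitrate dehydrogenase, 1549 and 1907 units (0.30). Sdhb, another subunit of succinate dehydrogenase, and Idh3g, another of isocitrate dehydrogenase, had 0.03 and 0.15. Ogdh, a subunit of the oxoglutarate dehydrogenase complex, was the exception, at 524 and 449 units (-0.22). The median of the citrate supply genes, -0.21 or 0.02 under those scalings, was thus 0.36 below that of these 13 genes. Under the 9 alternative settings the difference ran from -0.40 to -0.32. Other floors, the filter for both arrays and scaling to control probe sets left it unchanged. The difference between gene lists has no replicate behind it and no test, and the lists were chosen with earlier results of these data known.

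A list of 16 genes that joined the use of exported citrate with malate shuttles and other sources of NADPH had 8 genes on each side of 0 and a median of 0.00. Those downstream of citrate were at or below 0 at their brightest probe sets under the deposited scaling. Acly, which splits citrate in the cytosol, read 4446 and 4401 units (-0.01, or 0.21 after scaling to the hybridization controls). Its other measured probe sets were higher in the null pool, with 0.12 and 0.16. The next steps were lower under both scalings: Acaca, acetyl-CoA carboxylase, had -0.57 and Fasn, fatty acid synthase, -0.51, beside -0.52 for Slc25a1. Me1, the cytosolic malic enzyme, and Acacb, the second carboxylase, were the genes of this list at least 1.5-fold apart. Me1 read 2655 and 1624 units, 1.64-fold lower, and Acacb 193 and 118 units, 1.63-fold lower. The aspartate and oxoglutarate carriers of the malate shuttle, Slc25a12 and Slc25a11, had 0.50 and 0.44.

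**Figure D4:**
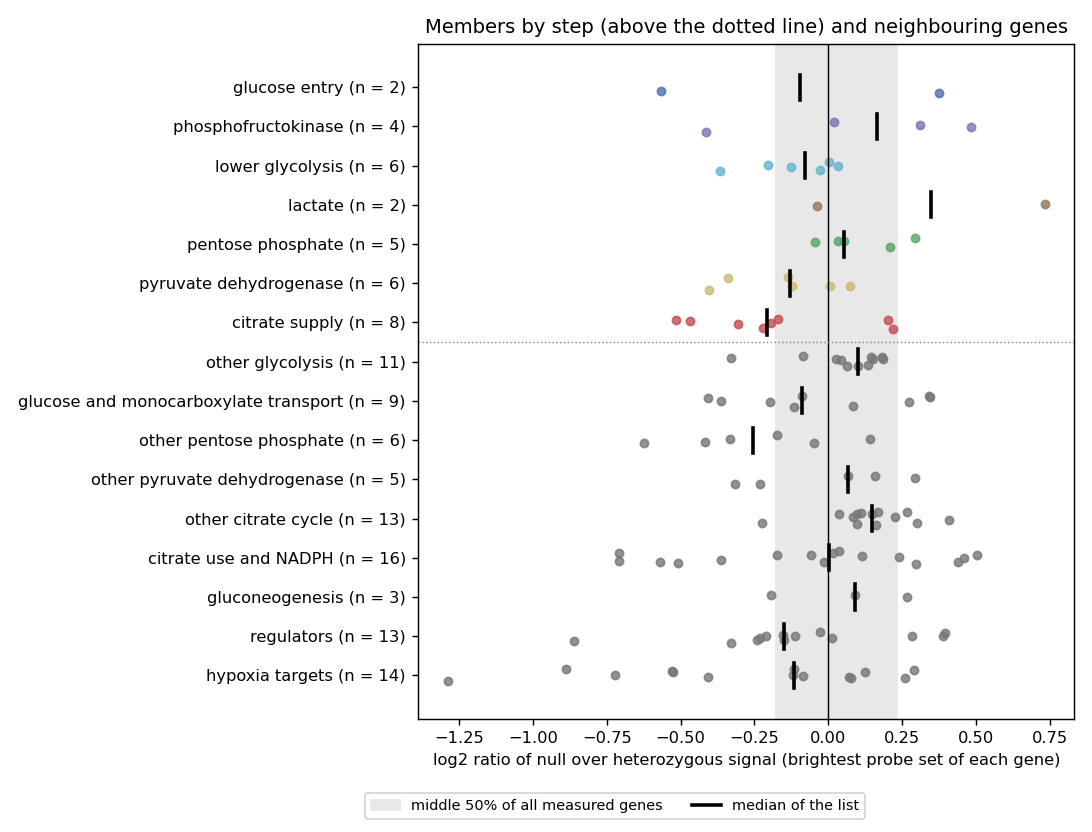
Log2 ratio of each measured gene at its brightest probe set, for the 7 steps of the set (coloured) and 9 lists of neighbouring genes (grey), with a bar at each median and the middle 50% of all measured genes shaded. Citrate supply has its median at -0.21, which becomes 0.02 after scaling to the hybridization controls, and the other citrate cycle genes at 0.15, which becomes 0.38.

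Genes that bring glucose and pyruvate in were split too, with 5 of 9 measured lower. Slc2a1, the main glucose transporter of this epithelium, read 1237 and 1079 units (-0.20), with -0.02 and -0.10 at its other probe sets. Mpc1, a subunit of the mitochondrial pyruvate carrier, read 2264 and 1707 units (-0.41), and Slc16a1, which carries lactate and pyruvate, 1970.3 and 1531 units (-0.36). Bsg, the chaperone of that carrier, had 0.08. Of the other glucose transporters, Slc2a3 (0.35), Slc2a4 (0.34) and Slc5a1 (0.27) were higher, and Slc2a8 (-0.11) and Slc2a12 lower. Slc5a1 had -0.11 at its other probe set, and Slc2a12 was below background in the null pool. Of 11 other measured glycolytic genes 9 were higher, none of them 1.5-fold apart. Gapdh, read here from its control probe sets, had 0.04, and Pgm1, phosphoglucomutase, read 272 and 309 units (0.18). In the pentose phosphate neighbourhood Prps1, which starts nucleotide synthesis from ribose phosphate, was 1.54-fold lower, at 317 and 206 units. Prps2, the only higher gene of the 6 measured there, read 372 and 411 units (0.14), with 0.43 and -0.03 at its other probe sets. Rbks, ribokinase, had -0.42 at a dimmer signal. Pdhx, which anchors Dld in the dehydrogenase complex, had -0.32. Pdk2 and Pdpr had 0.16 and 0.07. Few genes of glucose synthesis were measured, 3 in all, with 0.09 for Pck2, 0.27 for G6pc3 and -0.19 for Fbp1, which was below background in the null pool. The other probe set of Pck2 had -0.59, so that the mean over probe sets left 2 of the 3 lower.

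Among regulators of these pathways, Myc, which drives many glycolytic genes, read 1784 and 982 units, 1.82-fold lower, and was the only one of 13 measured at least 1.5-fold apart. Hif1a and Epas1, the oxygen-sensitive subunits of the hypoxia-inducible factors, had -0.15 each. Srebf1, which controls lipid synthesis genes, had -0.03. Targets of hypoxia outside glycolysis were lower for 9 of 14 genes, with a median of -0.12 that became 0.11 after scaling to the hybridization controls. Adm, adrenomedullin, was 2.44-fold lower, at 194 and 79.7 units. Ddit4, a stress-induced inhibitor of mTOR, was 1.65-fold lower, and Ankrd37 was at background in the null pool, at least 1.85-fold lower. Members of the set known as targets of the same factors lay on both sides, with Hk2 and Pgk1 lower, Pfkfb3 higher and Ldha near equal. Pdk1, also raised by low oxygen, had 0.07, with 0.49 and -0.13 at its other measured probe sets. These are examples and not every such member.

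Markers of other cell types differed between the pools. Of 10 fibroblast markers 9 were higher in the null pool, with summed signals of 10839 and 13848 units. All 9 endothelial markers were higher (1735 and 2494 units), as were 6 of 8 macrophage markers (11800.1 and 13761 units) and all 5 measured B and plasma cell markers (219 and 692 units). Of those 5, only 2 were above background on both arrays, Cd22 and Jchain, and Jchain alone read 108 and 458 units. Cd79a, Ms4a1 and Mzb1, and Itgam among the macrophage markers, were below background in the heterozygous pool. They counted as measured only through the null pool, so that they could only be higher. Of 7 measured adipocyte markers, 6 were lower, at 8870.3 and 7808 units in all, most of it from Fabp4. The defining Adipoq and Lep were at 66.6 and 39.4 units in the heterozygous pool and below background in the null pool, and Cidec was below background in both. Luminal markers summed to 71221 and 68897 units, with 5 of 9 lower, and myoepithelial markers to 22169 and 20361.6 units, with 5 of 7 lower. Of 8 skeletal muscle markers 4 were measured and 3 of these were higher, with a median of 0.23 and sums of 330 and 418 units. Mb read 188 and 228 units (0.27), Acta1 had 0.18, and Mylpf was below background in the heterozygous pool and at least 1.54-fold higher in the null pool. Ckm was at or near background (32.2 and 33.5 units). Under the deposited scaling Hk1, Pfkm and Ldhb were higher in the null pool, like most stromal markers. Pcx and Slc25a1 were lower, like most adipocyte and myoepithelial markers, among them Krt14 (-0.69). Luminal markers were split, with 5 lower, such as Lalba (-0.52), and 4 higher, such as Krt18 (0.22) and Epcam (0.26). After scaling to the hybridization controls, 2 of 9 luminal and 2 of 7 myoepithelial markers were lower. Fabp4 had -0.15, or 0.08 after scaling to the hybridization controls. The part of cell composition in these ratios was not tested, and in RNA of mixed cells fewer cells of a type and less RNA per cell cannot be told apart.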

How the data were processed

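Per the submitters' processing notes, the authors made the deposited values with MAS5 in Affymetrix Expression Console version 1, giving 1 linear signal intensity for each of 45101 probe sets, 64 of them controls, on each of 2 arrays. Annotation and genome build are not given in the sources used here, and detection calls were not used here. Such scaling assumes equal total signal in both pools. Gene symbols came from the platform's annotation, updated by Entrez ID through the RefSeq table. In it, 34958 probe sets had 1 symbol, 932 had several and 9211 had none listed. Each gene was represented by its brightest probe set, and signals were floored at each array's median over non-control probe sets. Genes at or under the floor on both arrays were left out. Pools of 5 mice with 1 array per genotype allow no test, so counts past a fold of 1.5 or 2 were given. Precision is limited by having 2 arrays. The spread is the robust SD of ratios in 20 bins of signal. Every member was named; neighbouring genes were named at 1.5-fold or more, else the 2 brightest, and others as examples chosen after their values were seen. The members, lists and alternatives were chosen with earlier results of these data known. Python 3.11.15, pandas 2.3.3 and numpy 2.4.6 were used, and the steps were tested on simulated data.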

Additional observations from a re-analysis of the deposited data

How the results depend on the processing

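The median ratio of the members, the count of lower members and the counts past each fold were recomputed under 9 alternatives. No member was 2-fold apart under any of them. Scaling to the hybridization controls moved the median from -0.04 to 0.19, the number of lower members from 18 to 8 and the number at least 1.5-fold apart from 1 to 3 (Hk1, Pfkfb3 and Ldhb). Scaling to the poly-A controls gave 0.22, 8 and 3. Each added the same amount to every ratio, and the median of all measured genes moved from 0.03 to 0.26 and 0.29. The members' median thus stayed 0.07 below it in each. That comparison does not match genes by signal. Under the deposited scaling the median was -0.05 among the brightest genes, where many members lie. The mean over a gene's measured probe sets gave 2 members at least 1.5-fold apart (Pfkfb3 and Ldhb), and leaving out probe sets marked as reading more than 1 transcript, where a gene had another, also gave 2 (Ldhb and Pcx) and a median of -0.12, with 19 lower under both. Quantile normalization gave a median of -0.01 with 17 lower. Other floors and the filter for both arrays left all 33 ratios as they were, since every member lies well above background. No paired analysis was possible because each genotype has 1 array. The limit is the missing replicate: no spread between pools of the same genotype is known.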
